A study of Mus musculus with 9 samples.

Results

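Peaks of the chromatin remodelers PBRM1 and BRG1 were examined at 10 genes of the fibroblast growth factor (FGF) family, the ligand genes *Fgf1*, *Fgf2*, *Fgf7*, *Fgf9*, *Fgf10*, *Fgf17*, *Fgf18* and *Fgf21* and the receptor genes *Fgfr1* and *Fgfr2*, out of 21755 protein-coding genes on the autosomes and X. A peak belonged to a gene when its summit lay in the GENCODE vM21 gene body (GRCm38) or within 20 kb of it. It was a promoter peak when the summit lay within 2 kb of an annotated start of that gene, even if another gene's start was nearer. It was a neighbor promoter peak when only another gene's start was that close, and otherwise distal. The rule took in 1044 peaks over 8 lists, of which 762 fell at *Fgfr2*. There 1 of 27 annotated transcripts began 2 bp from a start of *Ctbp2* and stretched the gene body to 2961 kb over 30 other protein-coding genes. Without that transcript the *Fgfr2* body spanned 104 kb and the members held 343 peaks, which are described from here on, a choice made after the values were seen.

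All groups were wild-type (WT) primary oviductal muscle cells from mice 8 to 12 weeks old, mated with stud males, on D2 (day 2) of pregnancy. The cells were plated after digestion of the oviduct, kept in culture for some hours and fixed, and each library was made from 50000 cells. In chromatin immunocleavage sequencing (ChIC-Seq) an antibody guides a protein A-micrococcal nuclease fusion, which releases the DNA around the target. There were 3 libraries with an antibody to PBRM1 (BAF180), the subunit that marks the PBAF form of the SWI/SNF remodeling complex, 3 with an antibody to BRG1, an ATPase of SWI/SNF complexes, and 3 with IgG, which were not analysed here. The sources used here do not say whether replicates came from separate animals, so the p-values measure the spread between these libraries, which may be technical.

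FGF ligands are secreted proteins that bind receptor tyrosine kinases on the cell surface. Receptor activation recruits docking proteins and runs through RAS and the ERK kinases to ETS transcription factors, while Sprouty, Spred and DUSP proteins dampen the signal. FGF7 and FGF10 are typically made by mesenchymal cells and signal to epithelium through a splice form of FGFR2, whereas FGF2 acts widely on mesenchymal cells through FGFR1.

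The PBRM1 libraries held 18126049 to 23992352 fragments and the BRG1 libraries 14284532 to 15897724, and each list had between 31970 and 39467 peaks. Pileup, the fragment coverage at a summit, was scaled to 1000000 fragments of its library and is given in those units as FPM, and the smallest pileup called was 0.333 to 0.386 FPM for PBRM1 and 0.377 to 0.420 for BRG1. Of 8 smooth muscle markers, 4 (*Acta2*, *Tagln*, *Smtn* and *Mylk*) had a promoter peak in all 6 replicate lists, as did 41.8% of protein-coding genes. *Myh11* had one in 1 list and *Cnn1* in none, and 34.3% of protein-coding genes had none. None of the 5 epithelial markers, 2 endothelial markers or the leukocyte marker *Ptprc* had one in all lists of either antibody, and in the replicate lists *Krt8* and *Pecam1* were the only ones of these with any. In the pooled lists, however, *Krt8*, *Pax8*, *Foxj1* and *Pecam1* had a promoter peak of both antibodies and *Epcam* one of BRG1, which is 3 of 5 epithelial markers for PBRM1 and 4 of 5 for BRG1, whereas *Ovgp1*, *Cdh5* and *Ptprc* had none. Among protein-coding genes, 44.2% had a promoter peak in all PBRM1 lists and 50.0% in all BRG1 lists. The pooled PBRM1 list had one at 66.0% of these genes and the pooled BRG1 list at 67.8%. Whether the marker counts differed from these shares was not tested, nor was the part of other cell types in the results. Each replicate list also held 3 to 7 peaks on the Y chromosome, although the cells came from female mice.

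Promoter peaks were uneven across the 10 genes. *Fgf18*, a ligand with roles in lung and skeletal development, and *Fgfr2* had one in all 6 lists. *Fgf2*, *Fgf10* and *Fgfr1* had one in all 3 BRG1 lists and in 0, 1 and 2 PBRM1 lists. *Fgf1* had one in 1 PBRM1 and 2 BRG1 lists, *Fgf9* in 1 PBRM1 list, and *Fgf7*, *Fgf17* and *Fgf21*, the last an endocrine ligand best known from liver, had none. Thus 2 of 10 members were occupied in all 6 lists, where 41.8% of protein-coding genes were. All 3 BRG1 lists were positive at 5 members against 50.0% of genes, and all 3 PBRM1 lists at 2 members against 44.2%. No list was positive at 3 members, against 34.3% of genes, where the absence of a peak means that none was called at this depth. BRG1 exceeded PBRM1 in the number of positive lists at 4 members (*Fgf1*, *Fgf2*, *Fgf10* and *Fgfr1*; 14.7% of genes) and PBRM1 exceeded BRG1 at *Fgf9* (5.48% of genes). In the lists called on the 3 pooled replicates, every member except *Fgf17* had a promoter peak of both antibodies, against 66.0% of genes in the pooled PBRM1 list and 67.8% in the pooled BRG1 list.

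**Figure D1:**
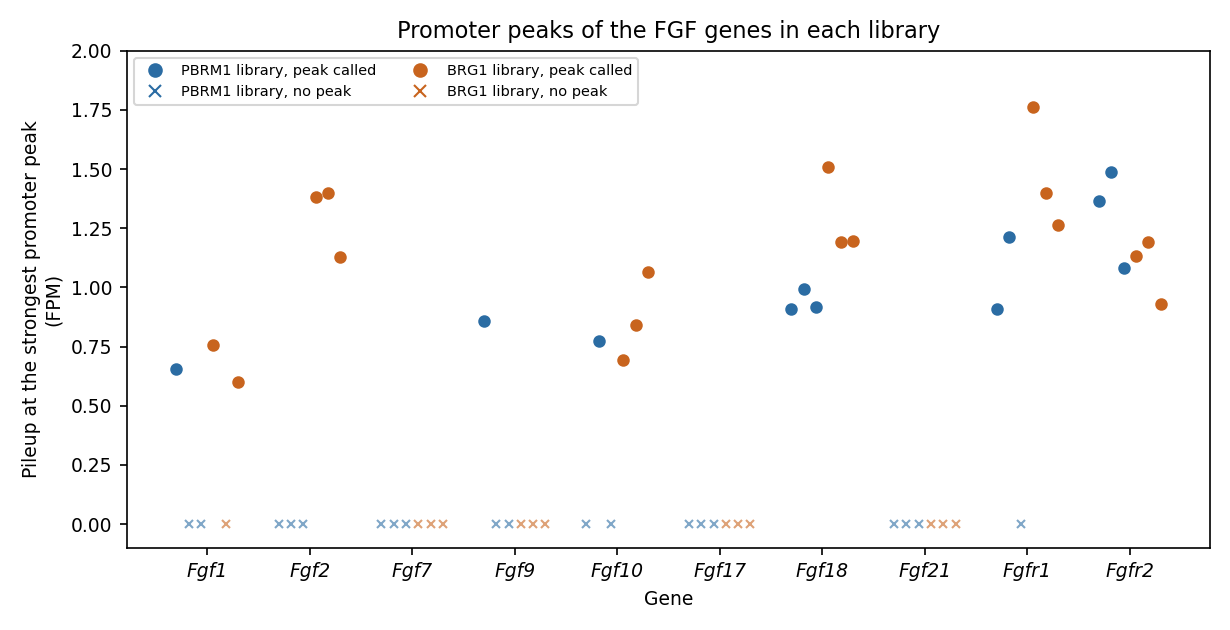
Pileup in FPM, fragments scaled to a library of 1000000 (vertical axis), at the strongest promoter peak of each FGF gene (horizontal axis) in each of the 3 PBRM1 and 3 BRG1 libraries. Crosses at 0 mark libraries with no called promoter peak, which need not have had zero coverage. *Fgf18* and *Fgfr2* have a filled point in all 6 libraries, and *Fgf2* in the BRG1 libraries only.

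At the *Fgf18* promoter, the site chr11:33147966-33148918 lay in intergenic sequence with its median summit 977 bp upstream of the first start. Its pileup was 0.909, 0.993 and 0.917 FPM in the PBRM1 libraries and 1.51, 1.19 and 1.20 in the BRG1 libraries. In bulk cells, less occupancy per cell and fewer occupied cells cannot be told apart. The antibodies may also differ in efficiency, so a ratio of BRG1 to PBRM1 pileup compares signals and not amounts of bound protein. Each BRG1 value was higher than each PBRM1 value, with means of 0.940 ± 0.046 (SD, n = 3) and 1.30 ± 0.18 (SD, n = 3). The log2 ratio of BRG1 to PBRM1 was 0.46 ± 0.22 (SE; adjusted p = 0.0644, limma with Benjamini-Hochberg adjustment over 12842 sites). Its pooled BRG1 summit is shown with the 100 bp on either side because this was the only promoter of a ligand gene among the 10 with a single site in all 6 lists. The peaks of PBRM1 replicates 1 and 2 do not reach this stretch, and every PBRM1 summit and that of BRG1 replicate 2 lie outside it. The median summit was at position 33148433 for PBRM1 and 33148133 for BRG1, a difference that was not tested. The sequence has 10 CpG dinucleotides and contains none of the motifs described below. It was chosen after its values were seen and, like the others printed here, is from GRCm38 and written 5′ to 3′ on the strand of the gene.
Fgf18 promoter site, chr11:33148033-33148233, minus strand: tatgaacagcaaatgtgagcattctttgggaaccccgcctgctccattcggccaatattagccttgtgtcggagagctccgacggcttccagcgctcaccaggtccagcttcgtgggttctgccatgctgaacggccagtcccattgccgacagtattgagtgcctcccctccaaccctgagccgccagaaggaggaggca

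At the *Fgfr2* promoter most replicate lists had the PBRM1 and the BRG1 peak at different places, a difference that was not tested. Immediately upstream of the first start, the site chr7:130266319-130266574 had a peak in all 3 PBRM1 lists, at 1.36, 1.49 and 1.08 FPM, and in 1 BRG1 list, at 0.931. Its PBRM1 summits were 159 to 191 bp upstream of the nearest start. Downstream of the start, the site chr7:130264973-130265839 had a peak in all 3 BRG1 lists, at 1.13, 1.19 and 0.931 FPM, and in 1 PBRM1 list, at 0.909. Those BRG1 summits were 447 to 1080 bp downstream of the nearest start. Both pooled lists had peaks at both sites. The upstream one reached 1.29 FPM in the pooled PBRM1 list and 0.885 in the pooled BRG1 list, and the downstream one 0.808 and 0.951. Neither site was in all 6 lists, so neither entered the test of pileup.

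*Fgfr1* encodes the main FGF receptor of mesenchymal cells. Its site chr8:25521372-25522128, in an intron 1.93 kb from the nearest of 18 annotated starts, had a peak in all 6 lists, at 0.909, 1.21 and 1.04 FPM for PBRM1 and 1.51, 1.40 and 1.13 for BRG1. The ranges of the antibodies overlapped, and the log2 ratio was 0.35 ± 0.21 (SE; adjusted p = 0.152, limma). In PBRM1 replicate 3 the summit of that peak fell outside 2 kb, which is why the gene had promoter support in only 2 PBRM1 lists. A second peak, at a start inside the gene, was the strongest promoter peak in BRG1 replicates 1 and 3, at 1.76 and 1.26 FPM, and lay 8 and 19 bp from that start. No PBRM1 replicate list had a peak at that start, but the pooled PBRM1 list did, at 0.856 FPM, beside 1.37 in the pooled BRG1 list.

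*Fgf2* encodes a ligand that is retained by heparan sulfate in the extracellular matrix. Its strongest promoter peaks in the BRG1 libraries reached 1.38, 1.40 and 1.13 FPM (1.30 ± 0.15, SD, n = 3), and no PBRM1 replicate list had one. All 3 BRG1 and no PBRM1 list was a pattern seen at 0.754% of protein-coding genes, and the opposite pattern, seen at 0.106%, occurred at no member. The strongest BRG1 peaks were not 1 site: in replicate 1 the summit lay 1.03 kb downstream of an *Fgf2* start, and in replicates 2 and 3 it lay 1.61 and 1.59 kb upstream. BRG1 replicate 3 also had a weaker peak at the downstream site of replicate 1, at 1.06 FPM. The median summit of that downstream site lay 947 bp from an *Fgf2* start but 57 bp from a start of another gene, *Fgf2os*. BRG1 replicate 1 had a further promoter peak, at 0.881 FPM, with its summit 35 bp from an internal *Fgf2* start. The pooled PBRM1 list did have a peak 1.66 kb upstream, at 0.808 FPM, beside 1.08 in the pooled BRG1 list 1.61 kb upstream. At the downstream site the pooled lists had peaks of 0.614 FPM for PBRM1 and 0.995 for BRG1.

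*Fgf10* had its promoter peaks near an internal start and not near the first annotated one. That internal start was the only start of a protein-coding transcript of the gene. The strongest peaks reached 0.692, 0.840 and 1.06 FPM in the BRG1 libraries and 0.772 in PBRM1 replicate 2. They lay 45.4 to 46.0 kb into the gene and 0.471 to 1.12 kb downstream of the nearest *Fgf10* start. A start of another gene, *Gm16263*, was closer. The median summits of the sites holding these peaks lay 151 and 426 bp from it, and 546 and 1123 bp from the *Fgf10* start. Which of the genes the peaks belong to was not tested. At *Fgf1* the peaks reached 0.657 in PBRM1 replicate 1 and 0.755 and 0.599 in BRG1 replicates 1 and 3, all within 342 bp of a start. The single *Fgf9* peak, in PBRM1 replicate 1, reached 0.859 FPM and lay 841 bp downstream of the start. The pooled *Fgf7* peaks were at the start itself, 16 bp from it for PBRM1 and 157 bp for BRG1, with pileups of 0.646 and 0.774 FPM. The pooled *Fgf21* peaks were the weakest, at 0.307 FPM for PBRM1 and 0.464 for BRG1. They did not overlap each other, and their summits lay 1.75 and 1.97 kb upstream of the start, close to the 2 kb limit.

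CpG content also varied among the members. Over 501 bp centered on the starts of protein-coding transcripts (the median over the starts of a gene), *Fgfr2* had 65 CpG dinucleotides, *Fgf18* 47, *Fgfr1* 37.5 and *Fgf2* 32.5. *Fgf9* had 29, *Fgf17* 20, *Fgf21* 16, *Fgf10* 15, and *Fgf1* and *Fgf7* 9 each. The median was 23 over protein-coding genes, 36 over those with a promoter peak in all 6 lists and 5 over those with none. The 4 members with the most CpG had a promoter peak in 3 to 6 lists and the other 6 in 0 to 4, a description over 10 genes that was not tested.

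Merging the overlapping peaks of the 6 replicate lists gave 71 sites in the windows of the 10 genes, 18 at their own promoters, 7 at promoters of neighbors and 46 distal. Of these 71 sites, 11 had a peak in all 6 lists, which equals the 15.5% seen among all 83005 sites, and 35 had a peak in 1 list only (49.3%, against 47.0% of all sites). BRG1 was called in more lists than PBRM1 at 34 sites and PBRM1 in more at 22, which is 47.9% and 31.0%, against 39.9% and 34.7% of all sites. Of the 46 distal sites 41 lay in introns, 4 were intergenic and 1 was in an exon.

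The genes differed in how densely sites were placed. *Fgf2* had 15.7 sites per 100 kb of window, *Fgf7* 11.4 and *Fgfr1* 8.82, whereas *Fgf21* had 2.40 and *Fgf9* 1.22. The median over protein-coding genes was 4.84. A site in all 6 lists was found in the windows of 6 members, against 58.8% of protein-coding genes. At *Fgf17* and *Fgf21* such sites were only at neighbors, *Dmtn* and *Npm2* beside *Fgf17* and *Rasip1* beside *Fgf21*. Of 75 pooled PBRM1 peaks in the windows, 48 overlapped a pooled BRG1 peak (64.0%, against 64.4% genome-wide), and of 86 pooled BRG1 peaks, 49 overlapped a pooled PBRM1 peak (57.0%, against 64.7%).

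**Figure D2:**
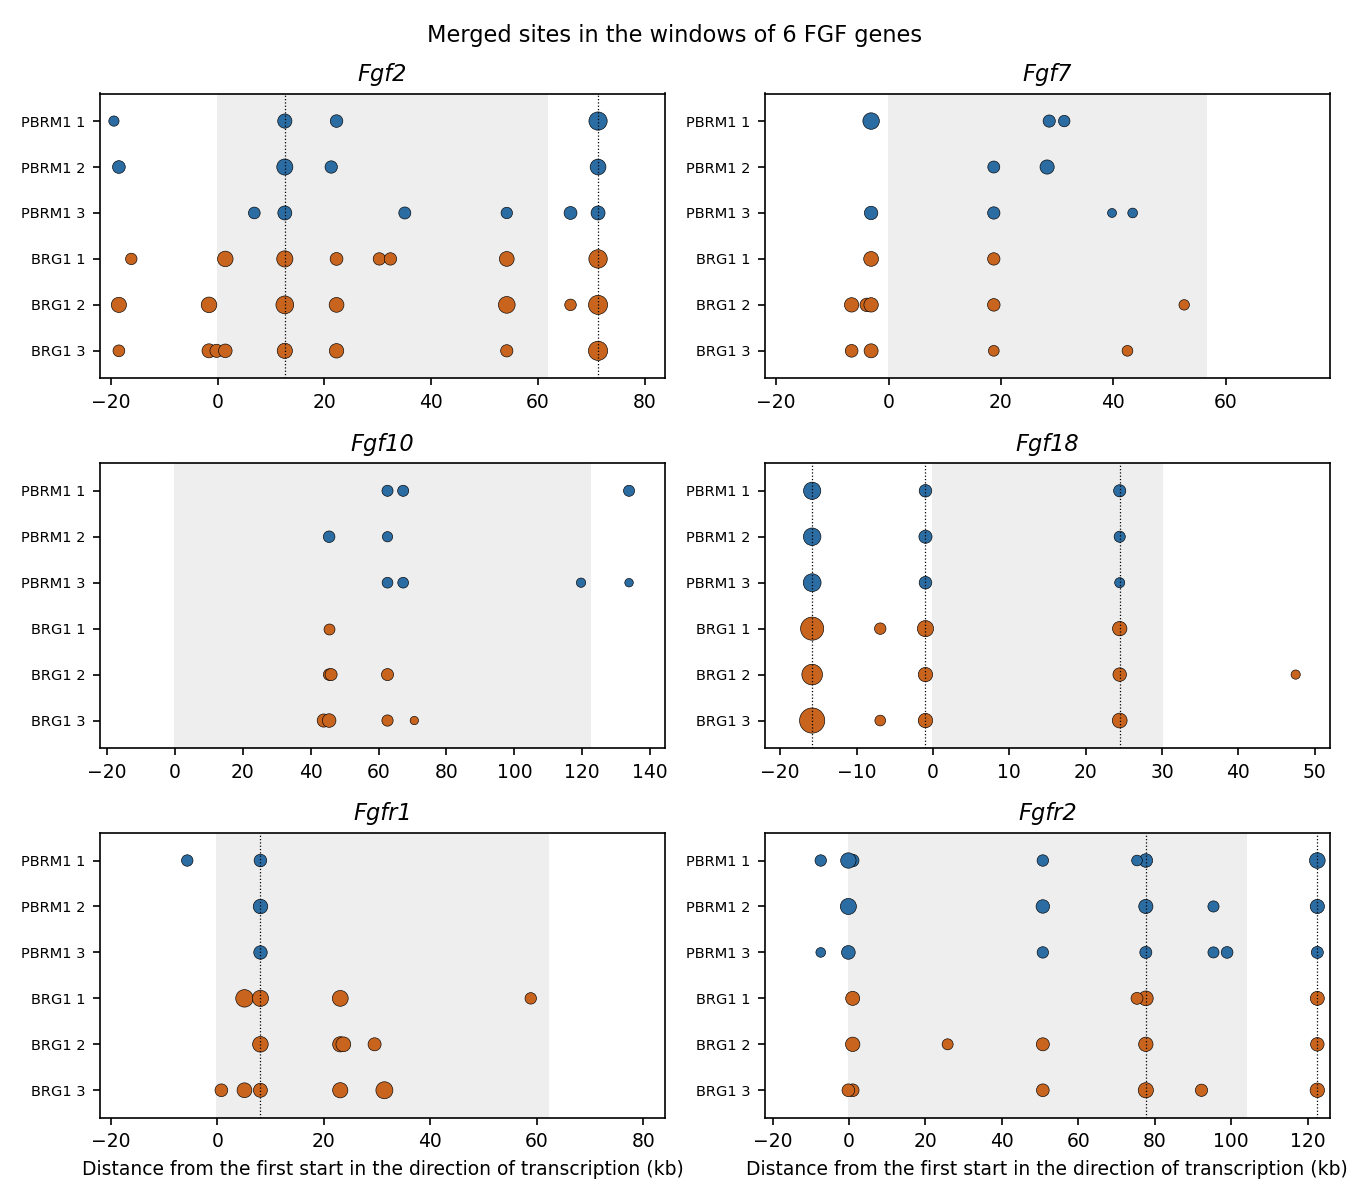
Merged sites in the windows of *Fgf2*, *Fgf7*, *Fgf10*, *Fgf18*, *Fgfr1* and *Fgfr2*, by distance in kb from the first start in the direction of transcription (horizontal axis) and by library (vertical axis). The area of a point is proportional to pileup in FPM, the gray band is the gene body, and dotted lines mark the sites with a peak in all 6 lists: 2 at *Fgf2*, 3 at *Fgf18*, 1 at *Fgfr1* and 2 at *Fgfr2*.

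Distal sites in all 6 lists were found at *Fgf2*, *Fgf18* and *Fgfr2*. The strongest of each gene is shown by 201 bp centered on the pooled BRG1 summit, since each of these sites had a peak of both antibodies in every library, although the peaks of some libraries do not cover the whole stretch and some of their summits lie outside it. Capitals mark the AP-1 motif TGANTCA.
Fgf2 intronic site, chr3:37360846-37361046, plus strand: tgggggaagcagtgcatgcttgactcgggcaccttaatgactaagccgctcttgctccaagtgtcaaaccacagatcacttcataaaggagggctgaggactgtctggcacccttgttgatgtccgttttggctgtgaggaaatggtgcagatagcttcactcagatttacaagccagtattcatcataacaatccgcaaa
Fgf18 intronic site, chr11:33122826-33123026, minus strand: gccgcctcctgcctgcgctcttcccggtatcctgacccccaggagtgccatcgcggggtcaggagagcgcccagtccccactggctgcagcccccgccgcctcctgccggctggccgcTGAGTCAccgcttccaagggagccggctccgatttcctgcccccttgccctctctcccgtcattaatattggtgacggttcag
Fgfr2 intronic site, chr7:130188570-130188770, minus strand: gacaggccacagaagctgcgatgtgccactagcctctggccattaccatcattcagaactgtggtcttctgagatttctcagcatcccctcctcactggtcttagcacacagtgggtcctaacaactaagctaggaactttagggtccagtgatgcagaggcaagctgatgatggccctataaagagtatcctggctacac
They differ in base composition. The *Fgf18* sequence has 68.2% GC and 15 CpG, the *Fgf2* sequence 48.3% and 4, and the *Fgfr2* sequence 50.7% and 1.

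The intronic *Fgf18* site, chr11:33122646-33123338, lay 24.5 kb downstream of the first start. Its pileup was 0.859, 0.717 and 0.584 FPM in the PBRM1 libraries and 1.20, 1.05 and 1.26 in the BRG1 libraries, so that the groups did not overlap. The summits of the 6 libraries fell within 89 bp. The median of this range was 238 bp over all sites in 6 lists and 358 bp over the 11 such sites in the members' windows. The log2 ratio of BRG1 to PBRM1 was 0.71 ± 0.23 (SE; adjusted p = 0.0065, limma), and the adjusted p was 0.052 without PBRM1 replicate 3.

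At the intronic *Fgf2* site, chr3:37360569-37361176, 12.6 kb from the first start, PBRM1 gave 1.16, 1.49 and 1.13 FPM and BRG1 1.51, 1.82 and 1.33. The groups overlapped, with a log2 ratio of 0.30 ± 0.21 (SE; adjusted p = 0.2, limma). Further sites in *Fgf2* introns varied in their support. The sites chr3:37370165-37370919 and chr3:37402297-37402578 each had peaks in 3 BRG1 lists and 1 PBRM1 list, at 0.944 to 1.26 and 0.865 to 1.61 FPM for BRG1 and at 0.909 and 0.750 for PBRM1. The second of these lay 2.04 kb from a start, just beyond the promoter limit. Of the others, 3 were called in 1 PBRM1 list and no BRG1 list, at 0.792, 0.883 and 0.834 FPM, and 1 in 1 BRG1 list and no PBRM1 list, at 0.881.

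*Fgfr2* had 2 such distal sites. One, in an intron at chr7:130188439-130188782, gave 1.06, 1.16 and 0.834 FPM for PBRM1 and 1.26, 1.19 and 1.33 for BRG1. Each BRG1 value was higher, but the log2 ratio of 0.32 ± 0.22 (SE; adjusted p = 0.198, limma) did not pass. The other, chr7:130143287-130144272, was intergenic and 123 kb beyond the first start, past the end of the gene. It gave 1.41, 1.16 and 0.834 for PBRM1 and 1.13, 1.05 and 1.20 for BRG1, with a log2 ratio of 0.02 ± 0.22 (SE; adjusted p = 0.943, limma). The groups overlapped there, and the PBRM1 libraries spanned a wider range than the BRG1 libraries. A further intronic site, chr7:130215292-130216283, was in 5 lists, with 0.758, 1.05 and 0.750 for PBRM1 and 0.980 and 0.931 in BRG1 replicates 2 and 3.

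An intronic site of *Fgfr1*, chr8:25536522-25537058, was the only one of the 71 sites with a peak in all 3 BRG1 lists and no PBRM1 list (0.916% of all sites), at 1.45, 1.33 and 1.33 FPM. None had the opposite pattern (1.22% of all sites). The pooled PBRM1 list did hold a peak there, at 0.775 FPM, beside 1.30 in the pooled BRG1 list.

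*Fgf7* and *Fgf10* had no site in all 6 lists, but each had distal sites in 5. At *Fgf7*, chr2:126031350-126031772 lay 3.11 kb upstream of the start, in an intron of the overlapping gene *Fam227b*. It reached 1.57 and 1.04 FPM in PBRM1 replicates 1 and 3 and 1.26, 1.19 and 1.13 in the BRG1 libraries. Within the gene, chr2:126053125-126053529 reached 0.828 and 0.875 in PBRM1 replicates 2 and 3 and 0.881, 0.910 and 0.665 in the BRG1 libraries. The 5 summits of the latter lay within 108 bp. In *Fgf10*, the intronic site chr13:118732310-118732974 gave 0.707, 0.607 and 0.667 in the PBRM1 libraries and 0.840 and 0.732 in BRG1 replicates 2 and 3. *Fgf9* had no distal site in any replicate list, and the best supported distal site of *Fgf1*, 11.3 kb from a start, was in 4 lists, with 0.505 and 0.662 in PBRM1 replicates 1 and 2 and 0.840 and 0.599 in BRG1 replicates 2 and 3.

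Of the 11 sites in all 6 lists, 5 had higher pileup in FPM for BRG1 (limma) and 0 for PBRM1, against 53.0% and 0.428% of all 12842 sites tested. In 7 of the 11 every BRG1 library was above every PBRM1 library, as in 56.8% of all sites, and in 0 of the 11 the reverse held, as in 0.779%. Higher values for BRG1 were thus a property of the whole table, whose median log2 ratio was 0.49, and the 11 sites had a median of 0.46. Relative to the median of all sites, 5 sites were higher and 6 lower. The difference from that median was 0.23 at the *Fgf18* intronic site, -0.03 at the *Fgf18* promoter and -0.47 at the intergenic *Fgfr2* site. The median differed by class, at 0.27 over 4494 distal and 0.59 over 8348 promoter sites in 6 lists. Beside the distal median, the log2 ratio was 0.71 at the *Fgf18* intronic and 0.02 at the intergenic *Fgfr2* site. Beside the promoter median, it was 0.46 at the *Fgf18* promoter. When each library was centered on its median, 0 of the 11 passed (limma, adjusted p from 0.189 to 0.988; 1 at an unadjusted p under 0.05), against 2.45% higher for BRG1 and 2.28% higher for PBRM1 over all sites. On the authors' fold enrichment 0 passed as well (limma, adjusted p from 0.093 to 0.996; 1 at an unadjusted p under 0.05), against 10.6% and 0.226% of all sites. The PBRM1 libraries were also the deeper ones, and the parts of depth and of the antibodies in the shift were not tested.

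Only 1 of the 5 sites higher for BRG1, the intronic *Fgf18* site, belonged to a member. The other 4 were at starts of neighbors. The *Npm1* promoter beside *Fgf18* gave 1.72, 1.77 and 1.83 FPM for PBRM1 and 3.08, 2.45 and 3.66 for BRG1, the BRG1 values being the highest in any of the windows, with a log2 ratio of 0.77 ± 0.18 (SE; adjusted p = 0.00031, limma). The *Rasip1* promoter beside *Fgf21* had a log2 ratio of 0.79 ± 0.22 (SE; adjusted p = 0.0026, limma), the *Dmtn* promoter beside *Fgf17* 0.55 ± 0.22 (adjusted p = 0.029) and the *Nudt6* promoter beyond the end of *Fgf2* 0.50 ± 0.19 (adjusted p = 0.026). Leaving out any one library except PBRM1 replicate 2 ended the *Dmtn* call (limma, adjusted p from 0.051 to 0.124), and leaving out PBRM1 replicate 2 or 3 or BRG1 replicate 2 or 3 ended the *Nudt6* call (limma, adjusted p from 0.054 to 0.193). The *Rasip1* call ended without BRG1 replicate 1 (limma, adjusted p = 0.052), and the *Npm1* call held without each library in turn.

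**Figure D3:**
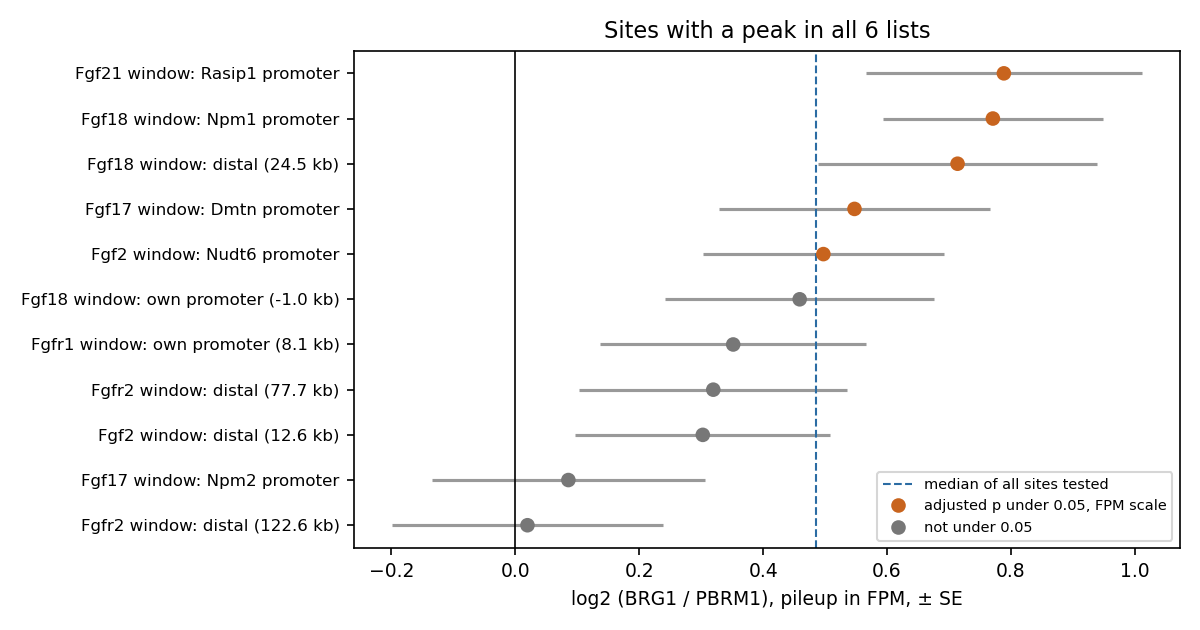
Log2 ratio of BRG1 to PBRM1 pileup in FPM (horizontal axis, bars are SE, 3 libraries per antibody) at the 11 sites with a peak in all 6 lists. The dashed line is the median of all 12842 sites, 0.49, around which the 11 sites scatter from 0.02 to 0.79.

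Motifs were searched within 200 bp of the pooled BRG1 summit on both strands. AP-1 (TGANTCA) matched at 2 of the 4 distal sites in all 6 lists, the intronic *Fgf2* and *Fgf18* sites, against 44.5% of 4483 such sites genome-wide. A match to AGATAA, bound by GATA factors, was found at 1, the intronic *Fgfr2* site, against 16.5%. The TEAD motif GGAATG and the CArG box, the sequence bound by serum response factor, matched at 0, against 33.5% and 2.86%. The *Fgf2* and *Fgfr2* matches lay outside the 201 bp printed. Among all 34 distal sites of the members with a pooled BRG1 peak, AP-1 and TEAD matched at 9 each, GATA at 6 and the CArG box at 0. The genome-wide share for sites chosen in the same way was not computed, so these counts have no like set beside them.

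Other genes of the pathway were taken as a list of 45. Of these, 22 had a promoter peak in all 6 lists (48.9%, against 41.8% of genes). All 3 BRG1 lists had one at 30 of the 45 (against 50.0% of genes) and all 3 PBRM1 lists at 23 (against 44.2%). No list had one at 6 (against 34.3%). Of the 14 other ligands, 2 were in all 6 lists (*Fgf5* and *Fgf20*) and 6 in none (*Fgf4*, *Fgf6*, *Fgf8*, *Fgf14*, *Fgf16* and *Fgf23*). Of the 5 other receptors and co-receptors, none was in all 6 lists, and *Fgfrl1*, a receptor without a kinase domain, was in all 3 BRG1 lists at 2.15 ± 0.40 FPM (SD, n = 3). Downstream of the receptors, 5 of 8 docking and adaptor genes, 6 of 8 genes of the ERK cascade, 6 of 7 feedback inhibitors and 3 of 3 ETS genes were in all 6.

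Among the highest means over the 6 libraries were those of *Etv5*, an ETS factor induced by FGF signaling (2.96 FPM), *Shc1*, an adaptor (2.66), *Il17rd*, a membrane inhibitor of the pathway (2.54), and *Map2k1*, a kinase of the cascade (2.16). *Etv5* had 2.06 ± 0.27 for PBRM1 and 3.86 ± 0.57 for BRG1 (SD, n = 3), above the 1.29 and 1.96 that were the medians of the 9092 genes with a promoter peak in all 6 lists. *Fgfr2*, with 1.31 ± 0.21 for PBRM1 and 1.08 ± 0.14 for BRG1, and *Fgf18* lay below the BRG1 median. *Fgf13*, which encodes an intracellular member of the family, had a promoter peak in all 3 BRG1 lists and no PBRM1 list, at 0.548 ± 0.185 FPM (SD, n = 3). It was the only gene of the list with this pattern (0.754% of protein-coding genes), and none had the opposite pattern (0.106%).

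Of the 45 genes, 21 had a promoter site in all 6 lists, and 16 of the strongest such sites were higher for BRG1 and 0 for PBRM1 (limma), against 53.0% and 0.428% of all sites. Those shares cover promoter and distal sites together, and the share among promoter sites alone was not computed. The 16 sites included those of *Fgf20*, *Frs3*, *Shc1*, *Gab1*, *Plcg1*, *Hras*, *Map2k1*, *Map2k2*, *Spry4*, *Spred1*, *Spred2*, *Dusp6*, *Il17rd* and *Etv5*. The largest log2 ratio was that of *Etv5*, 0.90 ± 0.17 (SE), and the median of the 21 was 0.59, beside 0.59 over all 8348 promoter sites in 6 lists. Centered on the median of each library, 0 of the 21 passed (limma; 1, *Etv5*, at an unadjusted p under 0.05), and *Etv5* had an adjusted p of 0.07.

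**Figure D4:**
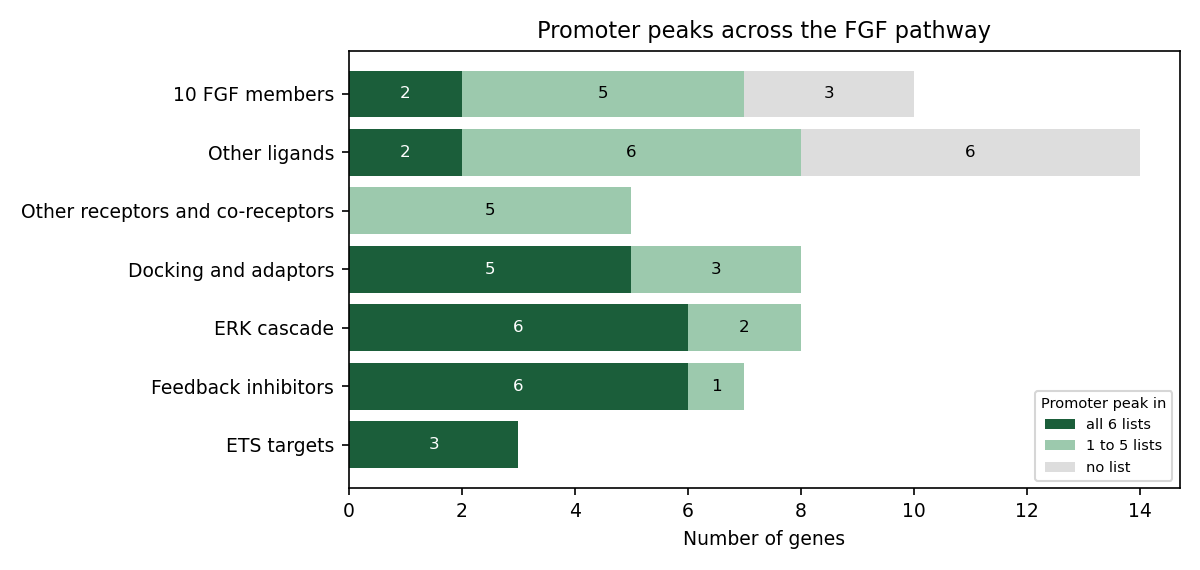
Number of genes (horizontal axis) in each role of the FGF pathway with a promoter peak in all 6, in 1 to 5 or in no replicate list. The members and the other ligands have the genes with no promoter peak, 3 of 10 and 6 of 14, and every gene of the other roles has at least 1.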

How the data were processed

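MACS 2.2.7.1 was run by the authors on read pairs, per the file headers, giving narrow peaks with no control file, an effective genome size of 2300000000 bp, a q cutoff of 0.05 and a local background from 10 kb of the same library. The submitters' processing notes name cutadapt, Bowtie2, MACS2 and GRCm38.p5, and the settings of trimming, alignment and duplicate removal are not given in the sources used here. The deposited pileup is the signal (fragment coverage at the summit), unscaled. The ratio deposited as fold enrichment sets pileup against local background, and the deposited −log10 q is the authors' own value for each peak. The deposited peak length, in bp, was not compared. Without a control, DNA cut irrespective of the antibody may have been called. Pooled lists rested on 61910852 PBRM1 and 45216486 BRG1 fragments, are the authors' pooling of 3 replicates, and carry no replicate error.

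No peak of 410864 ended beyond its GRCm38 chromosome. Peaks sharing at least 1 bp across the 6 replicate lists were merged (Python 3.11.15, pandas 2.3.3, pysam 0.24.0), and each site took the strongest peak of each library. Log2 pileup scaled to 1000000 header fragments (FPM) was fitted for sites in all 6 lists with limma 3.58.1 (R 4.3.3, intensity trend, Benjamini-Hochberg adjustment) on 3 PBRM1 and 3 BRG1 libraries, and the fit was checked on simulated data. Requiring a peak in all 6 lists leaves out sites that 1 antibody lacks. Replicate libraries were the unit, and an exact permutation test of 3 against 3 cannot give a p below 0.1. Precision per site is limited by its pileup, with a median of 15 to 18 fragments per list. Alternatives changed the scaling, sites tested, q minimum, prior, replicate block, distances, number of peaks and joining, and left out each library. The members and lists were chosen with earlier results of these data known. Named were all members, and from the pathway list the genes in all lists of 1 antibody only, those passing the test and the 5 with the highest mean, of which some are not reported here. For each member with a distal site in all 6 lists the strongest was described and its sequence printed unless it touched an exon or lay on chromosome 18. The handling of *Fgfr2* and the other sites and genes described were chosen after seeing the data.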

Additional observations from a re-analysis of the deposited data

How the results depend on the processing

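Promoter support depended on the distance and threshold. Within 1 kb of a start, 1 member had a promoter peak in all 6 lists, 1 in all PBRM1 lists and 2 in all BRG1 lists, and within 5 kb the first 2 counts were 4 and 4. With −log10 q of at least 5 the counts were 0, 1 and 1 with 5 members in no list, and with the strongest 31970 peaks of each list 1 was in all 6 and 3 in all BRG1 lists. There were 75 distal sites in 50 kb windows (7 in all 6 lists), 18 at the q minimum (1 in all 6) and 133 with the long *Fgfr2* transcript (16 in all 6), and leaving out 1 library gave 39 to 44, of which 4 to 6 were in all remaining lists. Without 1 library, 2 to 3 members were in all lists, 2 to 3 in all PBRM1, 5 to 6 in all BRG1 and 3 to 4 in none.

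Of the 11 sites tested, 5 were higher for BRG1, and this count was 0 on fold enrichment, 0 after median centering, 3 at the q minimum (where 5 of the 11 could be tested), 2 to 4 without 1 library (2 without PBRM1 replicate 3, and 3 without BRG1 replicate 1, 2 or 3), and 22 of 40 with the long *Fgfr2* transcript. The *Fgf18* intronic site had an adjusted p of 0.052 (limma) without PBRM1 replicate 3, and 0.53 and 0.68 under centering and fold enrichment. Over all sites the calls were 6803 higher for BRG1 and 55 for PBRM1, and 315 and 293 after centering, 1363 and 29 on fold enrichment, 4574 and 15 of 6513 at the q minimum. Signs of the log2 ratio turned under centering at the *Npm2* promoter (-0.38), *Fgf18* promoter (-0.0070), *Fgf2* intron (-0.16), *Fgfr1* promoter (-0.11) and *Fgfr2* intergenic and intronic sites (-0.45 and -0.15), and on fold enrichment at *Dmtn* (-0.0052) and *Npm2* (-0.090). Without 1 library *Npm2* ranged from -0.10 to 0.26 and the *Fgfr2* intergenic site from -0.19 to 0.19. None of these turned values passed the test. For the other pathway genes the 16 sites higher for BRG1 became 0 on fold enrichment and 0 after centering. At the q minimum 10 were higher for BRG1, where 11 of the 21 could be tested. Without 1 library the count was 10 to 17 (10 without PBRM1 replicate 3). The 22 pathway genes in all 6 lists became 13 at the q minimum and 22 to 24 without 1 library. The causes of these changes were not tested, apart from the fewer sites tested at the q minimum.

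Same-numbered libraries did not deviate together (correlations -3.6e-05, 0.0037 and -0.029 over 12842 sites). With the replicate number as a block, 5 of the 11 sites were higher for BRG1, 15 of the 21 pathway sites, and 6591 of all sites, with 51 higher for PBRM1. The 55 sites higher for PBRM1 became 85 of 21013 when 2 of 3 lists sufficed, and 36, 32 and 34 without PBRM1 replicate 1, PBRM1 replicate 2 and BRG1 replicate 3. The remaining alternatives left each count given here within 1.5 times its value.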
